A study of Mus musculus with 24 samples.

Results

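The interleukin-6 (IL-6) family and its signalling chain through STAT3 were followed in mouse gastrocnemius, the large calf muscle, through 10 genes of 21965 in the table. The genes were taken by symbol: the cytokine genes Il6, Lif and Osm, the receptor genes Il6st, Il6ra, Lifr, Osmr and Cntfr, the transcription factor gene Stat3 and the inhibitor gene Socs3. Messenger RNA was sequenced in 24 libraries in 6 groups of 4, a control group and groups labelled 1, 3, 5, 7 and 14 days after denervation, the loss of a muscle's nerve supply. The labels give the tissue of every library as gastrocnemius and name no strain, age, allele, agent or kind of nerve injury for any group. Separate animals are not stated for the libraries of a group. The p-values below therefore reflect the spread among these libraries only, and that spread may be technical. The series asks how acutely denervated muscle acts on the neurons that supply it.

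Cytokines of the IL-6 family share the signal-transducing receptor chain gp130, encoded by Il6st, and differ in the partner chain that brings them to it. IL-6 binds its own receptor (Il6ra), leukaemia inhibitory factor (Lif) uses the LIF receptor (Lifr), oncostatin M (Osm) uses the oncostatin M receptor (Osmr), and ciliary neurotrophic factor binds the receptor encoded by Cntfr, which then engages gp130 and the LIF receptor. Janus kinases bound to these chains phosphorylate STAT3, which enters the nucleus and activates genes, among them Socs3, whose product binds gp130 and damps the same signal. In skeletal muscle these cytokines are known for roles in regeneration, in wasting and in exchange with nerve, and STAT3 activity is set by phosphorylation, which RNA sequencing does not measure.

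Of the 10 genes, 9 have an entry among the RefSeq windows around gene starts used here, with 15 windows in all (6 for Cntfr, 2 for Lifr and 1 for each of the others), each 300 bases long (250 before and 50 after the start of transcription, build GRCm38.p6). The windows of Stat3 and Socs3 are shown because they encode the factor of this pathway and the inhibitor it induces. STAT proteins are known to bind the palindrome TTCNNNGAA, in which N is any base, and the windows were searched for these letters, which read alike on both strands, and for the stricter form TTCCNGGAA, which is a subset of them. Capitals mark a match to TTCNNNGAA.
Socs3, chr11:117969317-117969616, minus strand: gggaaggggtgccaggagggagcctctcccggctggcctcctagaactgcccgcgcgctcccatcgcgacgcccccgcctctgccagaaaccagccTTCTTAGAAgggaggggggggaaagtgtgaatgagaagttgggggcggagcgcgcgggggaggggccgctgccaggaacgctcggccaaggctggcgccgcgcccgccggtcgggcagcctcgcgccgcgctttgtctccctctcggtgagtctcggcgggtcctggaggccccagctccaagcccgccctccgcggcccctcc
Stat3, chr11:100939491-100939790, minus strand: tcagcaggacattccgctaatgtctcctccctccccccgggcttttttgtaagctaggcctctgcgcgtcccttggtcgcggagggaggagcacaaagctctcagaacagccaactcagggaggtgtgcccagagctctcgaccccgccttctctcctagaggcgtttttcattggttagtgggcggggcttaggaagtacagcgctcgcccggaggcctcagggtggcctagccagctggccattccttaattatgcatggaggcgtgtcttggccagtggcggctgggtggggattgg
Among the 15 windows, that of Socs3 held the only match, TTCTTAGAA, whose first base lies 154 bases before the RefSeq start. That window, like those of Lifr, Osmr and Cntfr, lies inside the GENCODE span of its gene given below. In that annotation the match is therefore within Socs3, and the bases upstream of the annotated gene were not searched. TTCNNNGAA occurs in 8.3% of the 32851 windows in the RefSeq table and TTCCNGGAA, found in none of the 15, in 1.15%. A match describes the letters in the window and is not a site at which binding was measured.

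Coordinates are from the GENCODE M21 annotation of GRCm38 and span the whole gene. The cytokine genes Osm (ENSMUSG00000058755, chr11:4236420-4241026, plus strand) and Lif (ENSMUSG00000034394, chr11:4257557-4272514, plus strand) are neighbours, 16.5 kb apart with no protein-coding gene between them. The receptor genes Osmr (ENSMUSG00000022146, chr15:6813577-6874969, minus strand) and Lifr (ENSMUSG00000054263, chr15:7090614-7197489, plus strand) likewise lie next to each other, 215.6 kb apart. Il6 (ENSMUSG00000025746) is at chr5:30013114-30019981, plus strand, Il6st (ENSMUSG00000021756) at chr13:112464070-112510086, plus strand, and Il6ra (ENSMUSG00000027947) at chr3:89864059-89913196, minus strand. Cntfr (ENSMUSG00000028444) is at chr4:41657498-41697089, Stat3 (ENSMUSG00000004040) at chr11:100885098-100939540 and Socs3 (ENSMUSG00000053113) at chr11:117966079-117970047, each on the minus strand. The ends of Stat3 and of Stat5a, which lies on the plus strand, overlap by 72 bases, and Il6ra has an annotated antisense gene. Whether reads were counted by strand is not given in the sources used here, so reads of these overlaps cannot be assigned with certainty.

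Library totals ran from 16082846 to 20696900 counts. Levels of a gene are compared between libraries as CPM, its count scaled to library size after TMM scaling, a method that assumes most genes to be level. Differences are log2 fold changes with their standard errors (SE) from edgeR's quasi-likelihood fit, with p-values adjusted by the Benjamini-Hochberg method over the 14246 genes tested. The words rose and fell are used where the adjusted p was below 0.05. When only library totals were used for scaling, the median of all genes lay above control by 0.61, 0.34, 0.67, 0.81 and 0.78 (log2) on days 1, 3, 5, 7 and 14. Changes below are given relative to the TMM scale, and those of the 10 genes whose direction differs on the other scale are named. For further genes the other scale is given mostly as counts per list, and not for every list or day. The summed CPM of 10 muscle fibre genes, 9 of which fell and 1 of which rose on day 14, went from 283800 to 291500 in control libraries to 53400 to 54190 on day 14. The libraries labelled day 3 stood apart: Chrng, the fetal acetylcholine receptor subunit gene that muscle is known to switch on when it loses its nerve, stood at 0.374 ± 0.175 CPM in control (SD, n = 4), 44.4 ± 3.09 on day 1, 0.563 ± 0.0976 on day 3, 13.8 ± 1.19 on day 5, 66.5 ± 1.40 on day 7 and 291 ± 5.38 on day 14. The libraries labelled day 1 and day 5 stood apart through lymphocyte genes, whose summed CPM over 10 genes was 169.5 to 176.7 and 190.8 to 211.2, against 2.639 to 4.583 over the other groups. In contrast to the tissue label, the protocol text speaks of RNA from dorsal root ganglion neurons. Summed CPM of 10 sensory neuron genes was 4.778 to 13.71 over all libraries and Scn10a, a sodium channel gene of pain-sensing neurons, was at 0 in every control library.

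Compared per gene length, as the deposited TPM (transcript abundance scaled to length and depth), the receptor chain shared by the family was the most abundant of the 10 in every group. In control muscle Il6st stood at 121 ± 2.41 TPM (SD, n = 4), followed by Stat3 at 30.7 ± 1.17, Lifr at 15.4 ± 1.54, Il6ra at 9.98 ± 0.525, Socs3 at 8.62 ± 0.661, Cntfr at 7.72 ± 1.15 and Osmr at 6.59 ± 0.316 TPM. The cytokine genes lay far below, with Lif at 0.168 ± 0.0752, Il6 at 0.131 ± 0.132 and Osm at 0.130 ± 0.0924 TPM. Ranges over the 24 libraries were 117 to 183 TPM for Il6st, 29.9 to 116 for Stat3 and 6.57 to 66.1 for Cntfr. The libraries of a group lay close together: the coefficient of variation of the 7 genes with at least 100 counts in each library was 0.461% to 13.6% within groups.

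**Figure D1:**
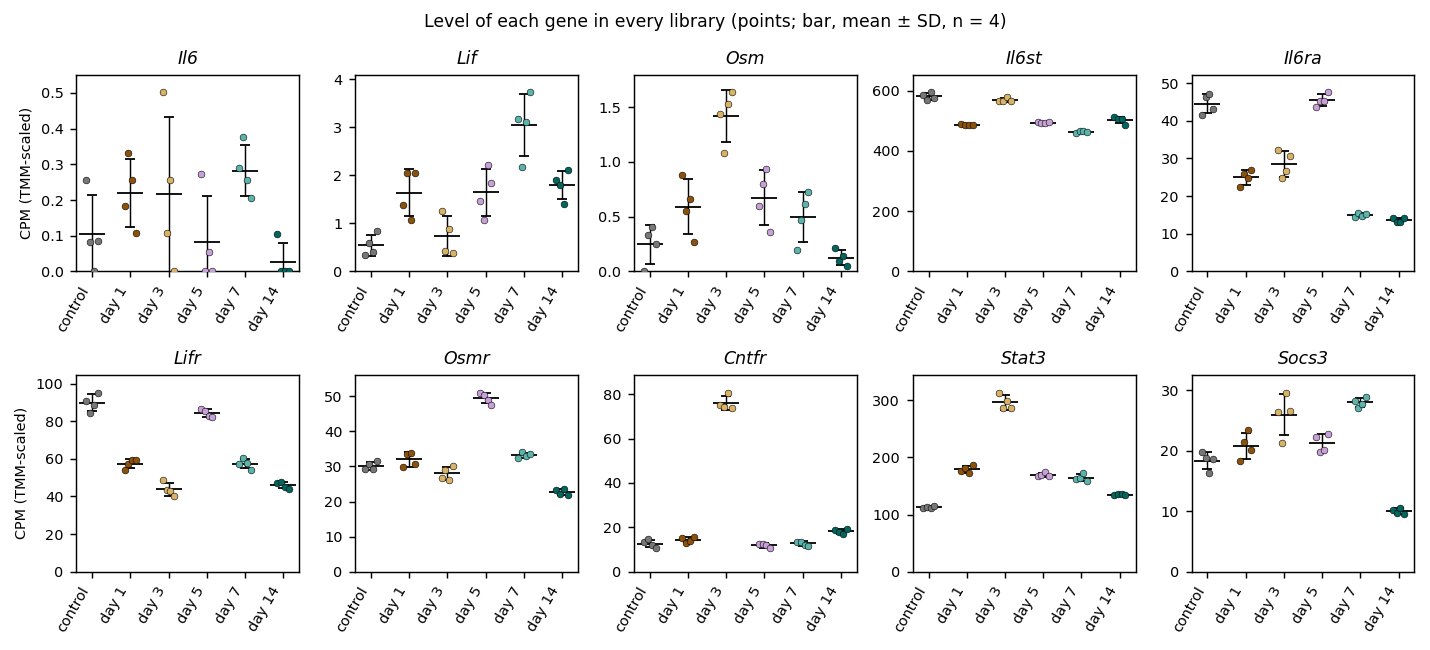
Level of each of the 10 genes in CPM (vertical axes, a scale for each gene) in control libraries and on days 1, 3, 5, 7 and 14. Points are single libraries, and the bar and line are the mean and SD of 4 libraries. Stat3 and Cntfr are highest on day 3, Lif on day 7 and Osmr on day 5.

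Of the cytokine genes, Il6 was close to the detection limit. Its counts were 3, 1, 0 and 1 in the control libraries, 4, 6, 5 and 2 on day 1, 8, 2, 4 and 0 on day 3, 5, 0, 1 and 0 on day 5, 6, 8, 5 and 4 on day 7, and 2, 0, 0 and 0 on day 14. Counts of every group but day 7 overlapped those of control, while the day 7 counts of 4 to 8 lay above the control counts of 0 to 3 but overlapped them as CPM (0.207 to 0.377 against 0 to 0.257). Il6 did not pass the filter on low counts and is therefore absent from the counts of tested genes below. Without the filter, edgeR found no day at which Il6 differed from control (adjusted p 0.191 to 0.837), and a fall between day 7 and day 14 (log2 −3.16 ± 1.03 SE, adjusted p = 0.00857), for which 20.1% of 18266 genes were lower on that fit. On the same fit edgeR's test over all 6 groups gave Il6 an adjusted p of 0.0390. No other step between neighbouring days passed the threshold, and with so few counts a change at those times could be missed.

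Lif was low in control muscle and rose on each day but day 3. Its CPM was 0.342, 0.583, 0.402 and 0.84 in the control libraries, 1.38, 2.05, 1.07 and 2.05 on day 1, 1.25, 0.432, 0.891 and 0.377 on day 3, 1.47, 1.07, 2.21 and 1.85 on day 5, 3.18, 2.17, 3.11 and 3.73 on day 7, and 1.91, 1.79, 1.4 and 2.11 on day 14. All libraries of days 1, 5, 7 and 14 lay above all control libraries, the day 3 libraries overlapped control, and the day 7 libraries lay above those of every other group except day 5, whose highest library passed the lowest of day 7. The rise over control was 5.55-fold on day 7 (log2 2.47 ± 0.34 SE, edgeR adjusted p = 1.31e-08), 2.98-fold on day 1, 3.02-fold on day 5 and 3.29-fold on day 14. On day 3 the difference was 0.42 ± 0.43 on the log2 scale (edgeR adjusted p = 0.385). These values rest on 4 to 10 counts per control library and 46 to 72 per day 7 library. In bulk muscle, more or fewer cells of a type that makes a transcript and more or less of it per cell cannot be told apart, for this gene and for those that follow.

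Osm, which macrophages, neutrophils and T cells are known to make, was highest on day 3. Its CPM was 0, 0.333, 0.402 and 0.252 in the control libraries, 0.877, 0.554, 0.663 and 0.269 on day 1, 1.44, 1.08, 1.53 and 1.63 on day 3, 0.599, 0.801, 0.938 and 0.36 on day 5, 0.192, 0.471, 0.612 and 0.725 on day 7, and 0.212, 0.0943, 0.145 and 0.0541 on day 14. The day 3 libraries lay above all 20 others, and the remaining groups overlapped their neighbours in level. Osm rose 5.54-fold on day 3 (log2 2.47 ± 0.50 SE, edgeR adjusted p = 2.90e-05), 2.36-fold on day 1 (adjusted p = 0.0428) and 2.65-fold on day 5 (adjusted p = 0.0207). The day 1 call was lost without control replicate 1 (log2 0.85, adjusted p = 0.166) or 4 (0.0701), and without day 1 replicate 1 (0.147), 2 (0.0509) or 3 (0.0722). It was also lost without the expression filter (0.0505) and without the day 3 libraries (0.0538). With only the 2 groups in the fit, Osm was not among the genes tested on day 1 or day 5. The day 5 call was lost without control replicate 1 (adjusted p = 0.094) or day 5 replicate 3 (0.0663), and without day 7 replicate 1 the day 7 difference of 0.97 became a rise of 1.24 (log2, adjusted p = 0.0462). With library totals alone the day 7 difference was 1.72 (log2, edgeR adjusted p = 0.00451). The summed CPM of 8 neutrophil marker genes was also highest on day 3, at 1.969 to 2.812 in control, 32.53 to 35.31 on day 1, 90.41 to 102.9 on day 3, 66.46 to 69.4 on day 5, 22.36 to 25.84 on day 7 and 13.14 to 15.51 on day 14. Of the 7 neutrophil genes tested, 6 were higher than control on day 3 and 7 on day 5. From day 3 to day 5, 3 rose and 3 fell, so the day 3 peak is that of the sum and not of the list in general, and Ly6g was at 0 in every control and every day 7 library and Camp in every day 14 library. The part of these cells in the Osm values was not tested.

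Il6st, the shared receptor chain, moved within a narrow range. Its CPM was 586, 567, 594 and 575 in the control libraries, 485 to 490 on day 1, 565, 567, 578 and 565 on day 3, 491 to 495 on day 5, 458 to 467 on day 7, and 486 to 512 on day 14. Control and day 3 libraries overlapped at the top, and the libraries of days 1, 5, 7 and 14 lay below both. The falls were 0.25, 0.23, 0.32 and 0.21 on the log2 scale on days 1, 5, 7 and 14, each with an SE of 0.02 and the smallest of them with an edgeR adjusted p of 4.36e-13. These differences are smaller than the gap between the scalings, since on library totals alone Il6st was higher than control on every day, by 0.33 to 0.51 (log2). Its direction therefore depends on the scaling.

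The IL-6 receptor gene Il6ra fell on days 1, 3, 7 and 14 and stood at its control level on day 5. Its CPM was 41.6, 46.2, 47.0 and 43.2 in the control libraries, 22.3, 25.9, 24.8 and 27.0 on day 1, 32.3, 24.9, 26.5 and 30.6 on day 3, 43.7, 45.3, 45.3 and 47.5 on day 5, 14.5, 15.6, 14.8 and 15.2 on day 7, and 14.3, 13.0, 13.2 and 14.1 on day 14. Control and day 5 overlapped at the top, day 1 and day 3 overlapped in the middle, and day 7 and day 14 lay below all of these. Il6ra was 3.27-fold lower than control on day 14 (log2 −1.71 ± 0.07 SE, edgeR adjusted p = 1.22e-25) and 2.96-fold lower on day 7 (−1.57 ± 0.07). On day 1 it was 1.78-fold and on day 3 1.56-fold lower, while the day 5 difference was 0.03 ± 0.06 (log2, edgeR adjusted p = 0.673). With library totals alone Il6ra was higher than control on day 5 (log2 0.68, edgeR adjusted p = 2.42e-13). The largest step between neighbouring days was the 3.02-fold fall from day 5 to day 7 (log2 −1.60 ± 0.07, edgeR adjusted p = 3.59e-25). The small rise from day 1 to day 3 (0.19, adjusted p = 0.00966) was lost without day 1 replicate 1 (0.0741) or day 3 replicate 1 (0.0895).

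Lifr, the chain used by LIF and by ciliary neurotrophic factor, was also lower at the same times and near control on day 5. Its CPM was 90.7, 84.2, 88.9 and 95.1 in the control libraries, 54.0, 57.1, 59.4 and 59.4 on day 1, 48.6, 43.2, 42.8 and 40.5 on day 3, 86.4, 85.5, 82.7 and 82.5 on day 5, 57.2, 60.5, 57.9 and 54.2 on day 7, and 47.3, 47.5, 45.3 and 44.2 on day 14. Day 5 overlapped control, day 1 overlapped day 7, and day 3 overlapped day 14. Lifr was 2.05-fold lower on day 3 (log2 −1.03 ± 0.05 SE, edgeR adjusted p = 7.73e-24), 1.95-fold lower on day 14 and 1.56-fold lower on days 1 and 7. On day 5 the difference was −0.09 ± 0.04 (log2, adjusted p = 0.0611), and it passed the threshold without control replicate 2 (adjusted p = 0.0208), without day 3 replicate 1 (0.0496), without all day 3 libraries (0.0446), or with only the 2 groups in the fit (0.0438). On the scale of library totals alone the falls of days 3 and 14 remained (log2 −0.66 and −0.24), the day 1 difference was −0.06 (adjusted p = 0.205), and Lifr was higher on days 5 and 7 (0.56 and 0.12). Lymphocyte genes, 10 of 10 of which were higher than control on both day 1 and day 5, summed to 169.5 to 176.7 CPM on day 1 and 190.8 to 211.2 on day 5. The part of these cells in the levels of Il6ra and Lifr was not tested.

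Osmr, the partner chain for oncostatin M, was highest on day 5. Its CPM was 29.2, 30.6, 29.4 and 31.6 in the control libraries, 29.8, 33.6, 33.9 and 30.8 on day 1, 26.8, 29.1, 26.2 and 30.2 on day 3, 51.0, 50.3, 49.0 and 47.7 on day 5, 32.4, 34.1, 32.9 and 33.6 on day 7, and 23.3, 22.1, 23.7 and 22.0 on day 14. Day 5 lay above and day 14 below every other group, and the groups between them overlapped except that day 7 lay above control and day 3. Osmr rose 1.64-fold on day 5 (log2 0.71 ± 0.06 SE, edgeR adjusted p = 8.65e-16) and fell 1.33-fold on day 14 (log2 −0.41 ± 0.06, adjusted p = 5.55e-08). The 1.10-fold rise on day 7 (adjusted p = 0.0261) was lost without control replicate 1 (0.0691) or 3 (0.0594) or day 7 replicate 2 (0.0595), in DESeq2 (0.0512) and with only the 2 groups (0.0531). Scaled to library totals alone, Osmr was higher than control on days 1, 3 and 14 as well (log2 0.66, 0.27 and 0.31). The size factors of DESeq2 gave −0.41 (log2) on day 14, as TMM did. They also placed the day 14 median of all genes at 0.06, as TMM did, and so cannot decide between the scales.

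Cntfr, the receptor gene for ciliary neurotrophic factor, had a single high group. Its CPM was 13.3, 14.8, 11.9 and 10.8 in the control libraries, 15.2, 13.1, 13.8 and 15.6 on day 1, 75.0, 74.3, 80.7 and 73.7 on day 3, 12.4, 12.6, 11.9 and 10.5 on day 5, 13.5, 13.6, 12.2 and 11.7 on day 7, and 19.0, 17.8, 16.9 and 19.1 on day 14. The day 3 libraries lay far above the rest, day 14 lay between them and the remaining groups, and control, day 1, day 5 and day 7 overlapped. Cntfr was 5.97-fold higher than control on day 3 (log2 2.58 ± 0.08 SE, edgeR adjusted p = 1.14e-31) and 1.43-fold higher on day 14 (0.52 ± 0.08, adjusted p = 5.71e-07). It rose 5.25-fold from day 1 to day 3 and fell 6.40-fold from day 3 to day 5 (log2 −2.68 ± 0.07, edgeR adjusted p = 1.65e-33). The day 1 difference of 0.19 (log2, adjusted p = 0.0520) passed the threshold in DESeq2 (0.0429), with its size factors (0.0472) and without the filter (0.0396). It also passed without control replicate 1 (0.0488) or 2 (0.0090), day 1 replicate 2 (0.0229) or 3 (0.0420), day 5 replicate 4 (0.0463) or day 7 replicate 4 (0.0499). On library totals alone Cntfr was higher than control on days 1, 5 and 7 too (log2 0.77, 0.54 and 0.77). The edgeR adjusted p was 6.96e-11, 5.07e-07 and 6.4e-11, so these groups were level with control only on the TMM scale. The day 3 libraries in which Cntfr was high are those in which Chrng stood near its control level.

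Stat3 was above control in every library of every day. Its CPM was 111, 113, 111 and 116 in the control libraries, 177, 181, 173 and 186 on day 1, 313, 286, 298 and 286 on day 3, 167, 169, 174 and 168 on day 5, 162, 163, 173 and 158 on day 7, and 134, 135, 136 and 134 on day 14. Day 3 lay above all other groups, day 14 lay below the other denervated groups and above control, and days 1, 5 and 7 overlapped. Stat3 rose 2.63-fold on day 3 (log2 1.40 ± 0.03 SE, edgeR adjusted p = 4.65e-36), 1.59-fold on day 1, 1.51-fold on day 5, 1.46-fold on day 7 and 1.20-fold on day 14 (log2 0.26 ± 0.03, edgeR adjusted p = 1.70e-09). On library totals alone the rises were 1.25, 1.77, 1.24, 1.31 and 0.98 on the log2 scale. Between neighbouring days Stat3 rose by 0.73 from day 1 to day 3 and fell by 0.80 from day 3 to day 5 (log2, SE 0.03 each). From day 5 to day 7 the difference was −0.05 (adjusted p = 0.176), which passed the threshold without day 7 replicate 3 (log2 −0.07, adjusted p = 0.0438) and was 0.08 higher with library totals alone (adjusted p = 0.0254). Stat3, like Osm, was highest in the group with the highest neutrophil sum, a peak not shared by the neutrophil list in general, as given for Osm. The 10 macrophage genes summed to 620.7 to 634.3 CPM in control, 989.1 to 1028 on day 3 and 1634 to 1674 on day 5. The part of these cells in the Stat3 values was not tested.

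Socs3, the inhibitor that STAT3 induces, was above control on days 3, 5 and 7 and below it on day 14. Its CPM was 19.8, 18.8, 16.4 and 18.7 in the control libraries, 18.3, 21.4, 23.4 and 20.2 on day 1, 26.4, 21.3, 29.6 and 26.5 on day 3, 22.3, 19.8, 20.1 and 22.7 on day 5, 28.3, 27.0, 27.8 and 28.9 on day 7, and 10.3, 9.66, 10.5 and 9.57 on day 14. The day 14 libraries lay below all others, the day 7 libraries overlapped day 3, day 1 overlapped control, and the lowest day 5 library met the highest control library. Socs3 rose 1.52-fold on day 7 (log2 0.61 ± 0.08 SE, edgeR adjusted p = 9.71e-09) and 1.41-fold on day 3 (0.49 ± 0.08, adjusted p = 1.56e-06), beside the 2.63-fold rise of Stat3 on that day. It fell 1.83-fold on day 14 (log2 −0.88 ± 0.09, edgeR adjusted p = 1.77e-11), a day on which Stat3 was still above control. The step from day 7 to day 14 was a 2.79-fold fall (log2 −1.48 ± 0.08, edgeR adjusted p = 4.25e-20). The 1.16-fold rise on day 5 (adjusted p = 0.0270) was lost without control replicate 3 (0.118) and without day 5 replicate 1 (0.0687) or 4 (0.0868). The day 1 difference of 0.18 (log2, adjusted p = 0.0588) passed the threshold without control replicate 1 (0.0377), day 1 replicate 1 (0.0146) or day 3 replicate 2 (0.0373) or 3 (0.0475). It also passed without all day 3 libraries (0.0391), without the filter (0.0390) and with only the 2 groups (0.0426). On library totals alone the day 1 difference was 0.76 (log2, edgeR adjusted p = 5.68e-11) and the day 14 difference was −0.16 (adjusted p = 0.108).

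**Figure D2:**
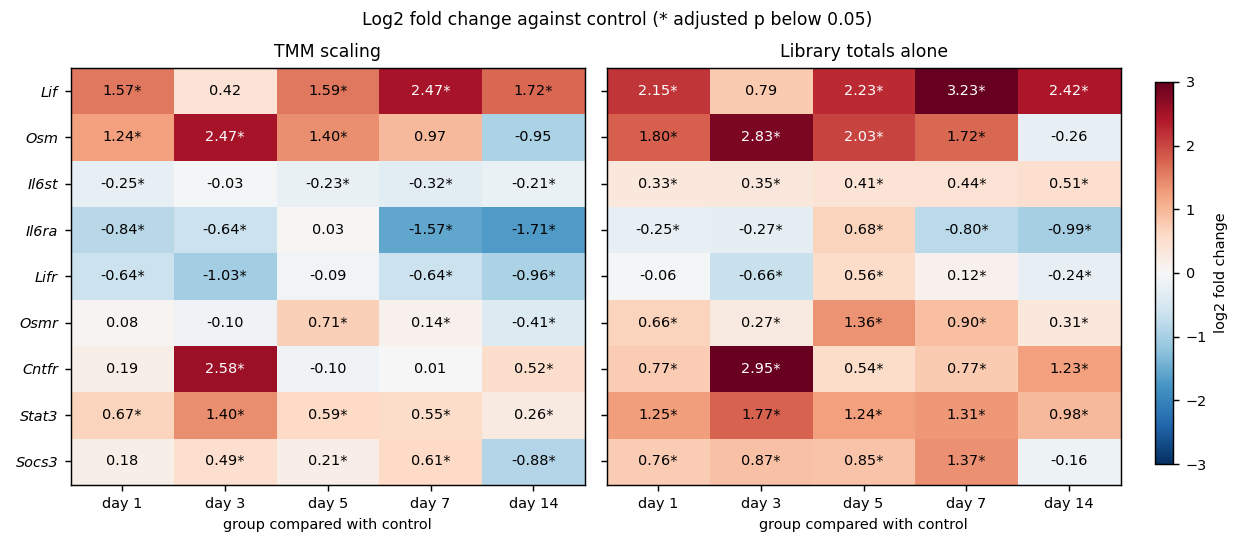
Log2 fold change of each gene (rows) against control on days 1, 3, 5, 7 and 14 (columns), with TMM scaling and with library totals alone; a star marks an edgeR adjusted p below 0.05. Cntfr on day 3 (2.58 on the TMM scale) and Lif on day 7 (2.47) are among the strongest rises, and Il6st is lower than control with TMM and higher with library totals.

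Counted over the 9 genes tested, all of them differed among the 6 groups in edgeR's omnibus test, as did 96.7% of the 14246 genes tested. On day 1, 3 genes rose (Lif, Osm, Stat3) and 3 fell (Il6st, Il6ra, Lifr), beside 38.1% of all genes higher and 36.2% lower. On day 3, 4 rose (Osm, Cntfr, Stat3, Socs3) and 2 fell (Il6ra, Lifr), beside 34.5% higher and 35.7% lower. On day 5, 5 rose (Lif, Osm, Osmr, Stat3, Socs3) and Il6st fell, beside 38.5% and 35.8%. On day 7, 4 rose (Lif, Osmr, Stat3, Socs3) and 3 fell (Il6st, Il6ra, Lifr), beside 40.2% and 36.7%. On day 14, 3 rose (Lif, Cntfr, Stat3) and 5 fell (Il6st, Il6ra, Lifr, Osmr, Socs3), beside 39.2% and 35.3%. The median log2 difference of the 9 genes was 0.18, 0.42, 0.21, 0.14 and −0.41 on days 1, 3, 5, 7 and 14, beside 0.03, −0.03, 0.03, 0.05 and 0.06 over all genes. In either direction 6 of the 9 passed on days 1, 3 and 5, 7 on day 7 and 8 on day 14, beside 74.3%, 70.2%, 74.3%, 76.9% and 74.4% of all genes, so the number of changed genes in this set is close to that of genes in general. All days share the same control libraries.

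With library totals alone the split turned toward rises, as it did for all genes. Of the 9 genes, 7 were higher and 1 lower on day 1 (70.5% and 13.3% of all genes), 6 and 2 on day 3 (54.9% and 18.2%), and 9 and 0 on day 5 (72.2% and 11.8%). On day 7 the numbers were 8 and 1 (74.4% and 12.2%) and on day 14 they were 5 and 2 (74.4% and 11.7%). Lif on days 1, 5, 7 and 14, Osm on days 1, 3 and 5, Cntfr on days 3 and 14, Stat3 on all 5 days and Socs3 on days 3, 5 and 7 were higher on both scales, as was Osmr on days 5 and 7, and Il6ra on days 1, 3, 7 and 14 and Lifr on days 3 and 14 were lower on both.

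Between neighbouring times, each of the 9 genes changed from day 1 to day 3 and from day 3 to day 5, beside 74.1% and 77.3% of all genes. On library totals alone 6 of them (3 higher, 3 lower) passed from day 1 to day 3, where the calls of Il6st, Il6ra and Socs3 were lost, and 7 (5 higher, 2 lower) from day 3 to day 5, where those of Osm and Socs3 were lost and Il6st rose. With TMM, from day 1 to day 3, 6 were higher and 3 lower (36.1% and 38% of all genes), and from day 3 to day 5, 4 were higher and 5 lower (38.2% and 39.2%). From day 5 to day 7, Lif and Socs3 rose and Il6st, Il6ra, Lifr and Osmr fell (68.2% of all genes changed, 33.8% higher and 34.4% lower). From day 7 to day 14, Il6st and Cntfr rose and 6 fell, namely Lif, Osm, Lifr, Osmr, Stat3 and Socs3 (51.6% of all genes, 26% and 25.6%). The Osm fall from day 3 to day 5 (log2 −1.07, edgeR adjusted p = 0.0117) was lost without day 5 replicate 4 (0.0569). The rise of Lif from day 5 to day 7 was 1.84-fold (log2 0.88 ± 0.26 SE, edgeR adjusted p = 0.00260), and its fall to day 14 was 1.69-fold (adjusted p = 0.0110). Over all genes, library totals alone gave a split of 24.8% higher to 51% lower from day 1 to day 3, 51.6% to 25.4% from day 3 to day 5, and 43.1% to 26.6% from day 5 to day 7.

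Other cytokines of the family followed courses of their own. Of 8 such genes, 5 passed the filter, and 2 rose and 2 fell on day 1, 2 rose and 1 fell on day 3, 2 rose and 2 fell on day 5, none rose and 3 fell on day 7, and none rose and 2 fell on day 14. Scaled to library totals alone, 1 was higher and 2 lower on day 7, and 3 higher and 1 lower on day 14. Cntf, which encodes ciliary neurotrophic factor, the ligand of Cntfr, and which Schwann cells are known to make, fell on every day, from 6.11 ± 0.319 CPM in control to 2.11 ± 0.410 on day 3 and 0.719 ± 0.360 on day 14 (SD, n = 4). Its day 14 difference was −3.07 ± 0.26 on the log2 scale (edgeR adjusted p = 8.96e-15). Cntf was low on day 3, when Cntfr was at its highest. Its mean was lower still on days 5 and 7 (1.40 ± 0.424 and 1.29 ± 0.245 CPM), when Cntfr overlapped control. The annotation places Cntf inside the longer gene Zfp91 on the same strand, so its counts are uncertain. Of 8 Schwann cell genes, 3 rose and 3 fell on day 1, and none rose and 7 fell on day 3. On day 5, 4 rose and 3 fell, on day 7, 1 rose and 4 fell, and on day 14, 2 rose and 4 fell. Summed CPM of the 8 was 383.8 to 409.4 in control, 234.3 to 256.8 on day 1 and 147 to 149.3 on day 3. It was 167.9 to 173.5 on day 5, 188.5 to 194.4 on day 7 and 114.9 to 122.1 on day 14. The part of these cells in the Cntf values was not tested. Clcf1, whose product also signals through Cntfr, rose on days 1, 3 and 5 and stood at 1.20 ± 0.531 CPM in control, 5.69 ± 0.157 on day 1. Il11, named after its values were seen, rose on days 1, 3 and 5 as well. It was near the detection limit (mean log2 CPM −1.69), and these rises were 3.63 ± 0.90, 2.68 ± 1.03 and 3.02 ± 0.97 (log2, SE). Il31 had no count in any library, Ctf1 was lowest on day 5 (log2 −1.47 ± 0.11) and Ebi3 was lower than control on day 7 (−0.67 ± 0.28).

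A list of 6 other receptor genes, 5 of them tested, is wider than the chains that work with gp130 as described above. Among the 5, 4 rose and none fell on day 1, and 3 rose and 1 fell on days 3, 5 and 7. On day 14, 4 rose and none fell. All 5, and so also Lepr on day 7, were higher on days 1, 7 and 14 on library totals alone. Csf3r, the receptor for granulocyte colony-stimulating factor and also 1 of the 8 neutrophil genes, stood at 1.17 ± 0.153 CPM in control and 27.9 ± 1.29 on day 3 (log2 4.57 ± 0.15 SE, edgeR adjusted p = 4.56e-30). Il27ra, the interleukin-27 receptor gene, was highest on day 5 at 6.64 ± 0.762 CPM against 1.15 ± 0.527 in control, and Il11ra1, the interleukin-11 receptor gene, rose by 0.87 ± 0.04 (log2) on day 14. Lepr, the leptin receptor gene, rose on days 1 and 5 and fell on days 3 and 7, with 10.2 ± 0.769 CPM in control, 19.9 ± 1.51 on day 1, 3.60 ± 0.117 on day 3, 27.4 ± 1.57 on day 5 and 8.08 ± 0.682 on day 7.

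Of the 10 genes for Janus kinases and the other STATs, 7 rose and 3 fell on day 1, 4 and 2 on day 3, 8 and 1 on day 5, 3 and 3 on day 7, and 2 and 5 on day 14. Stat5b, a mediator of growth hormone signals, fell on every day, from 772 ± 8.29 CPM in control to 184 ± 5.17 on day 14 (log2 −2.07 ± 0.02 SE, edgeR adjusted p = 5.92e-49). Stat5a, its near relative, rose on every day, from 18.9 ± 1.74 CPM in control to 44.0 ± 1.70 on day 1 (log2 1.22 ± 0.06). Stat2, which takes part in interferon signalling, rose by 1.00 ± 0.06 (log2) on day 1. On library totals alone the day 14 split of the 10 genes was 9 higher and 1 lower.

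Of 13 other feedback and phosphatase genes, 5 rose and 5 fell on day 1, 6 and 3 on day 3, 4 and 6 on day 5, 7 and 5 on day 7, and 5 and 4 on day 14. Cish, which encodes an inhibitor of cytokine signalling known to be induced by STAT5, stood at 16.2 ± 0.649 CPM in control, 3.03 ± 0.438 on day 1, 41.0 ± 1.90 on day 3, 5.32 ± 0.676 on day 5, 51.2 ± 2.23 on day 7 and 3.93 ± 1.01 on day 14. It was therefore above control on days 3 and 7 and below it on days 1, 5 and 14. Ptpn6, the phosphatase SHP-1 of blood cells, rose on every day and stood at 7.04 ± 0.752 CPM in control and 45.7 ± 1.58 on day 5. The splits of the 13 genes on library totals alone were 8 higher and 2 lower on day 1, 10 and 2 on days 3, 5 and 7, and 10 and 1 on day 14. Socs6 rose by 1.11 ± 0.06 (log2) on day 14, and Socs7 fell on day 7 (log2 −1.07 ± 0.05).

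Of 28 genes listed as STAT3 targets, 26 were tested, and 20 rose and 5 fell on day 1, 17 and 4 on day 3, 21 and 4 on day 5, 14 and 8 on day 7, and 12 and 12 on day 14. Their median log2 difference from control was 0.68, 0.91, 1.21, 0.42 and −0.33 on days 1, 3, 5, 7 and 14. The strongest rises were on day 3 and were of acute-phase genes: Lcn2, the iron-sequestering lipocalin, stood at 2.13 ± 0.534 CPM in control and 181 ± 2.97 on day 3 (log2 6.40 ± 0.09 SE, edgeR adjusted p = 5.78e-44). Serpina3n, a serine protease inhibitor, went from 11.7 ± 0.846 to 434 ± 8.58 CPM, Hp (haptoglobin) from 8.45 ± 1.46 to 338 ± 7.26 and Saa3 (serum amyloid A3) from 0.819 ± 0.632 to 36.3 ± 2.63. On day 14 Lcn2 was at 1.67 ± 0.181 and Saa3 at 0.584 ± 0.245 CPM, and neither differed from control beyond the threshold, while Hp and Serpina3n remained above it. Fos, Junb and Cebpd, immediate-early and stress-induced transcription factor genes, went the other way and fell on all 5 days, Fos by log2 −3.21 to −3.81 (chosen after their values were seen). Many genes of this list are also induced by other factors or made by neutrophils and macrophages, whose marker genes moved as given above, and the part of these was not tested. On library totals alone the day 14 split was 17 higher and 7 lower.

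Marker genes of the cell types a muscle holds also differed between the groups. Macrophage genes summed over 10 genes to 1416 to 1441 CPM on day 1, 1380 to 1400 on day 7 and 1018 to 1052 on day 14, and 9, 8, 10, 9 and 8 of the 10 were higher than control on days 1, 3, 5, 7 and 14. Others of the 10 were lower than control, 2 on day 3, 1 on day 7 and 2 on day 14. Genes of fibro-adipogenic progenitors and fibroblasts, cells known to express Il6 and Osmr, summed over 8 genes to 3336 to 3400 CPM in control, 2056 to 2083 on day 3 and 4832 to 4890 on day 14. Of these 8, 1 rose and 6 fell on day 3, and 4 rose and 3 fell on day 14. On the TMM scale the higher day 14 sum was therefore not shared by the whole list. On library totals alone 2 were higher and 3 lower on day 3, and all 8 were higher on day 14. The 8 endothelial genes, whose cells express Il6st and Lifr, fell on every day, from a sum of 1865 to 1932 CPM in control to 592.9 to 615.1 on day 7. Satellite cell genes summed over 6 genes to 84.27 to 86.89 CPM in control and 157.3 to 175.9 on day 5, although 3 of the 6 rose and 3 fell on that day (median log2 0.02). The part of these cell types in the values of the 10 genes was not tested.

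**Figure D3:**
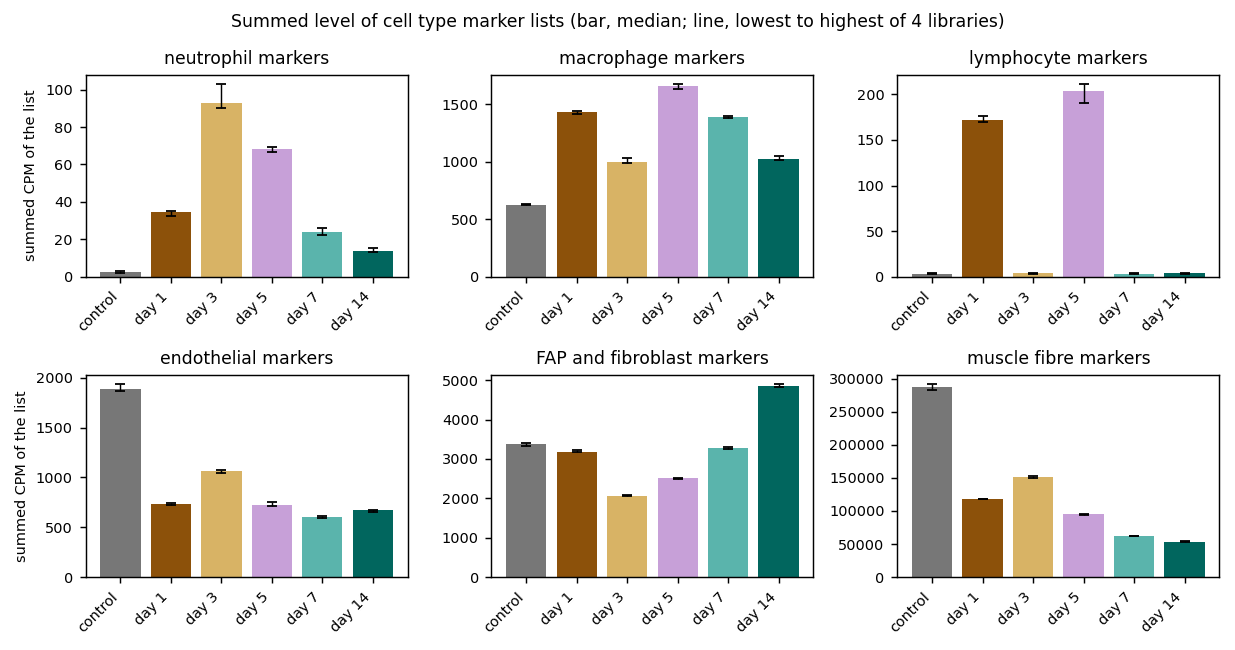
Summed CPM of the marker genes of 6 cell types (vertical axes, a scale for each) in control libraries and on days 1, 3, 5, 7 and 14. Bars start at 0 and show the median of 4 libraries, and lines run from the lowest to the highest library; the neutrophil sum is highest on day 3 and the lymphocyte sum on days 1 and 5.

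The course of each gene over the 24 libraries was set beside that of 11739 other genes by Pearson's correlation of log2 CPM, as a description, since the libraries of a group are near copies of each other and 6 group levels set these values. Among the closest genes were Csf3r (0.98) and Egln3 (0.98) for Stat3, Crem (0.97) and Bltp3a (0.97) for Cntfr, Fth1 (0.97) and Wnt4 (0.92) for Socs3, and Sbno2 (0.88) and Klhl30 (0.86) for Osm. For the other receptor genes they were Bod1 (0.99) and Ndst1 (0.98) for Il6st, Lama5 (0.98) and Map3k6 (0.97) for Il6ra, Pdk4 (0.95) for Lifr, and Eef2k (0.96) and Noct (0.93) for Osmr. For Lif they were Pola1 (0.92) and Nudcd1 (0.92). Among the 9 genes themselves the strongest positive values over the 24 libraries were 0.80 between Cntfr and Stat3, 0.79 between Osm and Stat3 and 0.73 between Il6ra and Lifr, and the strongest negative value was −0.88 between Il6st and Lif.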

How the data were processed

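RNA of mouse gastrocnemius was sequenced in 24 libraries in 6 groups of 4, grouped by title, where "DPD" was read as days post denervation with the help of the series' design text. TRIzol was used for extraction, per the labels' protocols, and RNA was selected with oligo(dT), made into libraries with a NEBNext Ultra kit and sequenced on a NovaSeq6000. The authors deposited expected counts, estimates that need not be whole (7.01% were not), and TPM for 21965 genes, per the file headers. The aligner, quantifier, genome build and strand use were not given in the sources used here. Coordinates are from GENCODE M21 (GRCm38), to which 21806 identifiers matched, and gene-start windows from RefSeq GRCm38.p6.

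Expected counts were rounded to whole numbers. edgeR 4.0.16 (R 4.3.3) with TMM and filterByExpr (minimum count 10) kept 14246 genes, and 1 quasi-likelihood fit over all 24 libraries gave 9 two-sided contrasts and an omnibus test, adjusted by Benjamini-Hochberg at 0.05. The SE is the absolute log2 fold change divided by the square root of F. CPM values are counts divided by TMM-scaled library size, and a prior count of 2 was used for log2 CPM in correlations. Deposited TPM was used only to compare levels between genes. Genes beyond the 10 were named by a rule: up to 4 per pathway list with the largest change on any day among those past the threshold whose log2 CPM averaged 0 or more, any list gene with no count, and the 2 closest named genes by correlation (mean log2 CPM of at least 1). Not every gene the rule picks is reported here. The members and lists were chosen with earlier results of these data known. The alternatives were DESeq2 1.42.0, its size factors in edgeR, library totals alone, no filter, CPM of at least 1 in 4 libraries, only the 2 groups compared, a replicate block and leaving out each library, and, chosen after seeing the data, leaving out the day 3 or the day 1 and day 5 libraries. The programs were tested on simulated data.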

Additional observations from a re-analysis of the deposited data

Results flagged for a closer look

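On the TMM scale Socs3 and Osmr stood on opposite sides of control on days 7 and 14. The Socs3 difference from control was 0.61 (log2) on day 7 and −0.88 on day 14, and the difference between these was −1.48 by edgeR's contrast of day 14 with day 7 (adjusted p = 4.25e-20). The same values for Osmr were 0.14, −0.41 and −0.55 (adjusted p = 9.87e-12). On the scale of library totals alone Osmr was above control on both days. Socs3 on day 14 was −0.16 (log2, edgeR adjusted p = 0.108) on that scale and so did not pass the threshold. The Osmr rise on day 7 was lost in DESeq2 (adjusted p = 0.0512), in edgeR with only the 2 groups (0.0531) and without some single libraries, as given above.

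Among 60 sets of 4 libraries (10 genes in 6 groups), 2 had a library farther from the rest than Dixon's critical value of 0.829 for 4 samples allows, and some such sets occur by chance. Il6 on day 14 was at 0.106 CPM in replicate 1 and at 0 in the other 3 libraries, which rests on 2 counts. Il6st on day 3 was at 578 CPM in replicate 3 and at 565 to 567 in the others, 0.845 of the group's range away from the nearest.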

How the results depend on the processing

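The counts of changed members and of changed genes stayed within 1.5 times their value in every alternative that was run. Of the 81 member fold changes (9 genes, 9 contrasts), 81 kept their direction and call with the CPM filter, 79 with DESeq2 size factors, 78 with DESeq2 and 78 without a filter. Of 75 with only the 2 groups, 72 did, and of 1944 values with a library left out, 1914 did, 16 lost and 14 gained a call, and none changed direction. Without the day 1 and day 5 libraries 36 of 36 did, and without the day 3 libraries 51 of 54.

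Library totals alone kept 53 of the 81 values, ended 6 calls, added 8 and turned 14. The values that turned (log2) were Il6st 0.33, 0.35, 0.41, 0.44 and 0.51 on days 1, 3, 5, 7 and 14, 0.065 from day 3 to day 5 and 0.030 from day 5 to day 7; Osmr 0.27 and 0.31 on days 3 and 14; Lifr 0.56 and 0.12 on days 5 and 7; Cntfr 0.54 on day 5; Il6ra −0.012 from day 1 to day 3; and Stat3 0.075 from day 5 to day 7. The alternative omits TMM, which moves all genes together.

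With the replicate number as a block, 81 of 81 values kept direction and call, and Stat3 on day 3 was 1.40. Deviations of same-numbered libraries from their group means correlated by −0.0783 to 0.0792 over 60 pairs, and 8 of 24 libraries correlated best with their own number. No pairing by number was seen in these values, which cannot exclude a small shared effect.

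Depth limits Il6, with 0 to 8 counts per library, and leaves Osm and Lif with wide errors.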
